A study of Arabidopsis thaliana with 11 samples.

Results

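Cytosolic ribosomal protein genes were followed through 11 RNA libraries of Arabidopsis thaliana seeds. The 41 genes were taken by locus identifier from the 28523 genes of the deposited tables, 27 for proteins of the large ribosomal subunit and 14 for proteins of the small subunit, and they fall into 18 families. They were listed by name and not by a cut on any value, although earlier results of these data were known when they were chosen. All seeds were hybrids of 2 ecotypes, Columbia (Col) and Landsberg (Ler, Landsberg erecta), taken 7 to 9 days after pollination, and each read was counted only where it matched one ecotype with fewer mismatches than the other. The counts thus give both the level of a gene and the share of each parent, which the study used to examine imprinting.

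Wild-type pure endosperm had 3 libraries, wild-type full endosperm 2 and wild-type embryo 3. Pure endosperm replicates 1 and 2 and embryo replicates 1 and 2 were Col-0 mothers crossed with Ler fathers, written Col × Ler, and pure endosperm 3 and embryo 3 were Ler × Col. Full endosperm 1 was Col × Ler and full endosperm 2 was Ler × Col. LCM, which usually stands for laser capture microdissection, is in the titles of pure endosperm 1 and embryo 1, although their protocol text describes the same hand dissection as the other libraries. What sets a pure apart from a full preparation is not in the labels. A dme endosperm library came from dme-2 heterozygous Col-gl mothers with wild-type Ler fathers, a fie endosperm library from fie-1 heterozygous Ler mothers with wild-type Col-0 fathers, and a met1 endosperm library from wild-type Ler mothers with met1-6 homozygous fathers of Col background, 1 library each. DEMETER (DME) is a DNA glycosylase that removes methylcytosine, FIE is a Polycomb group subunit and MET1 is the maintenance DNA methyltransferase. With heterozygous mothers only part of the seeds inherit the maternal mutant allele, so the dme and fie libraries are limited as models where wild-type seeds were not removed, on which the labels are silent.

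The cytosolic ribosome joins a small subunit, which reads the messenger RNA, and a large subunit, which forms peptide bonds. In Arabidopsis nearly every ribosomal protein is encoded by several paralogous genes, and the demand for these proteins is high in dividing and growing cells. The endosperm nourishes the embryo and has 2 maternal genomes for each paternal one, so that 66.7% of reads are maternal at genome dosage, against 50% in the embryo. Plant ribosomal protein promoters are known for site II motifs, which TCP factors bind, and for telo boxes.

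The stretches of 250 bases before the annotated start of all 41 genes were read from RefSeq's TAIR10.1 assembly by locus tag. A site II motif (TGGGCC or TGGGCT on either strand) was present in 27 of the 41 promoters (65.9%), against 19.2% of the promoters of 27438 protein-coding genes. A telo box (AAACCCTA on either strand) was present in 6 (14.6%), against 4.49% of all. At least 1 of the motifs was found in 30 members (73.2%, against 22.3% of all). A match is a run of letters and not a measured binding site. The 6 promoters shown belong to genes whose values carry the results: RPL3A has most of the members' reads, AT4G13170 had the largest difference between pure endosperm and embryo, and the RPL5 and RPS6 pairs changed their split between paralogues. Each is written 5′ to 3′ on the gene's own strand, and capitals mark site II motifs or telo boxes.
RPL3A (chr1:16266303-16266552, plus strand): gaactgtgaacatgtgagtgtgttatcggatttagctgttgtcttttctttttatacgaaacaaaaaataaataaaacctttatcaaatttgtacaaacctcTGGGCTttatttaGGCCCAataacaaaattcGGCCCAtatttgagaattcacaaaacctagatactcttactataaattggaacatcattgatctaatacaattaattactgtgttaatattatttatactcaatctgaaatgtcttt
AT4G13170 (chr4:7656595-7656844, minus strand): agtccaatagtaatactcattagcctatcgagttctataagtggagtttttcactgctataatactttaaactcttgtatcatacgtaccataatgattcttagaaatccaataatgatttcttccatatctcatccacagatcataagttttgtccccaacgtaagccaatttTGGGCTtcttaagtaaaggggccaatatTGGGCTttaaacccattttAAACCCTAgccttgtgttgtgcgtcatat
RPL5A (chr3:9271466-9271715, minus strand): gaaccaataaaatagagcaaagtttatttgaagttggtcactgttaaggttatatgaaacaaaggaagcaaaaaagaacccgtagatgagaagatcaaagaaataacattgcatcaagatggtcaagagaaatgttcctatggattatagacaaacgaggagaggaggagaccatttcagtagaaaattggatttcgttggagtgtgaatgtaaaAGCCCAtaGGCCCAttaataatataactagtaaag
RPL5B (chr5:15903029-15903278, plus strand): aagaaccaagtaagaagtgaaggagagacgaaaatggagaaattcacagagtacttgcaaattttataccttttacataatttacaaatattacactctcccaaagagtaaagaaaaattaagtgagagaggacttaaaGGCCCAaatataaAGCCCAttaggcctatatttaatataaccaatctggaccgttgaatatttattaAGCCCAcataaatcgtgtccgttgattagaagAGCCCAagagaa
RPS6A (chr4:15347805-15348054, minus strand): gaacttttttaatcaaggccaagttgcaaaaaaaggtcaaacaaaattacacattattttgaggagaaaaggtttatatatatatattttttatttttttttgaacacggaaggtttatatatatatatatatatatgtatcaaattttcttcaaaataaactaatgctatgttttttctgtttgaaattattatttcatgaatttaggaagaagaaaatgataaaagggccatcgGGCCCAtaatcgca
RPS6B (chr5:3260255-3260504, minus strand): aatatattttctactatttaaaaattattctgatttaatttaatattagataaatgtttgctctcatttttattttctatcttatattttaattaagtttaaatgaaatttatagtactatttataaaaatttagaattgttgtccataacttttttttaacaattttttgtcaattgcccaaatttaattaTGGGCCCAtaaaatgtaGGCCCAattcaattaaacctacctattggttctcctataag
RPL3A held 3 site II motifs, RPL5A 2, RPL5B 4, RPS6A 1 and RPS6B 3, the first 2 of RPS6B overlapping on opposite strands. The AT4G13170 promoter held 2 site II motifs and, 29 bases before the start, a telo box. The paralogues of a pair thus differed in the number and the place of these motifs.

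Reads were spread very unevenly over the members. No allele-assigned read was counted in any library for 14 of the 41 genes, 9 of the large and 5 of the small subunit. A further 5 genes had 1 to 49 reads over all 11 libraries, 22 had at least 50, and 14 had at least 1000. Of all 28523 genes, 10609 had no read. The genes at 0 include both L9 genes, AT1G33140 (PGY2) and AT1G33120, whose coding sequences are 99.1% identical with a shared run of 458 bases. They also include both S5 genes, RPS5A and RPS5B, and RPL18, RPL10B, RPS13A and PFL. A gene without a usable ecotype difference, or whose reads match a paralogue equally well, has no counts whatever its level, so a 0 gives no level. RPL3A (AT1G43170, large subunit) took 60.3% of the members' reads and AT1G70600, of the L18e/L15 superfamily, 8.55%. Read numbers depend on how many ecotype differences a gene holds, so levels were compared between libraries and not between genes. Paralogues can share reads wherever no base tells them apart, and each value of a paralogue is uncertain to that extent.

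Total allele-assigned reads ran from 358142 to 4828301 per library, and LCM-titled pure endosperm 1 was the smallest. Levels are given as scaled CPM, reads per library size (CPM) after adjustment with TMM, a scaling that assumes most genes do not change. Of 10 endosperm markers 8 had reads, and their summed level ran from 50.7 to 8800 in embryo, from 13810 to 191696 in pure and from 158617 to 242012 in full endosperm. The same markers summed to 676 in dme and 635 in fie, below every wild-type endosperm library, and to 195486 in met1. The summed level of 15 embryo markers ran from 1696 to 1796 in embryo, from 202 to 598 in pure endosperm, from 952 to 1047 in full endosperm and from 1234 to 1298 in the mutants. That of 17 seed coat markers ran from 734 to 1301 in embryo, from 1052 to 6844 in pure endosperm and from 10665 to 16347 in full endosperm, and it was 48499 in dme, 21847 in fie and 13718 in met1. No label ties replicates to separate plants, and p-values here cover only the spread between libraries, which may be technical.

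Ribosomal protein genes were lower in pure endosperm than in embryo. All 22 members that could be tested had a negative log2 fold change, 15 of them passed the test and none was higher, where 11.8% of all 9354 genes tested were called lower and 15.1% higher. The median over the 22 was -1.39 on the log2 scale, a 2.62-fold difference, and the median over all genes was 0.01. In 18 of the 22 every pure endosperm library lay below every embryo library, against 18.3% of all genes. The 22 are the members with enough reads and not all 41. Fewer cells with active ribosome production and less RNA per cell cannot be told apart in such bulk samples.

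Members took 1.30% to 2.93% of all reads in embryo, 0.487% to 0.679% in pure endosperm, and 0.288% and 0.360% in full endosperm. RPL3A, a protein of the large subunit near the site of peptide bond formation, had scaled CPM of 3562, 5779 and 4145 in pure endosperm 1 to 3 and of 11974, 13283 and 7312 in embryo 1 to 3. The lowest embryo library was above the highest pure endosperm library, and the log2 fold change was -1.27 ± 0.37 (SE, edgeR quasi-likelihood test, adjusted p = 0.0311). AT4G36130, of the L2 family, had scaled CPM of 303, 704 and 522 in pure endosperm and of 1542, 1625 and 882 in embryo. These groups did not overlap either, and the log2 fold change was -1.45 ± 0.42 (edgeR adjusted p = 0.0290).

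The largest difference was that of AT4G13170, of the L13 family. Its scaled CPM were 8.97, 80.9 and 35.6 in pure endosperm and 227, 232 and 144 in embryo, with pure endosperm 1 resting on 4 reads. The log2 fold change was -2.37 ± 0.51 (edgeR adjusted p = 0.00792), and it passed in all 15 alternative settings, with a highest adjusted p of 0.0405. AT4G29410, of the L28e family, followed with -2.23 ± 0.53, and its scaled CPM were 4.49, 7.99 and 7.12 in pure endosperm and 90.1, 24.7 and 21.6 in embryo. The embryo range of this gene was set by the LCM-titled library. RPS6A (AT4G31700), whose protein is the S6 kinase target of the small subunit, differed by -1.93 ± 0.64 (edgeR adjusted p = 0.0470), and by -1.22 without embryo 1 (edgeR adjusted p = 0.151).

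Both L5 genes, whose protein carries the 5S ribosomal RNA into the large subunit, were called lower. RPL5A had scaled CPM of 83, 77.4 and 80.9 in pure endosperm and of 322, 210 and 161 in embryo, a log2 fold change of -1.46 ± 0.33 (edgeR adjusted p = 0.00966). RPL5B (AT5G39740) had 17.9, 13.5 and 18.8 in pure endosperm and 182, 38.5 and 25.2 in embryo, a log2 fold change of -1.72 ± 0.51 (edgeR adjusted p = 0.0314). The embryo libraries of RPL5A lay closer together than those of RPL5B, whose LCM-titled library stood far above the other two. Without embryo 1 the difference of RPL5B was -1.08 and no longer called (edgeR adjusted p = 0.0995).

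Further calls were AT5G22440 (-1.85), RPS6B (-1.47), AT2G18020 (-1.42), AT3G24830 (-1.40), AT1G70600 (-1.26), RPL10A (AT1G14320, -1.25), RPL3B (-1.14) and AT3G53870 of the S3 family (-1.03), all as log2 fold changes. The members that did not pass had log2 fold changes from -1.62 in AT5G27850 (edgeR adjusted p = 0.0517) to -0.15 in AT1G34030 of the S13/S18 family (0.891). AT5G27850 had scaled CPM of 289, 517 and 623 in pure endosperm and of 2469, 1527 and 636 in embryo, so that pure endosperm 3 and embryo 3, both Ler × Col, were nearly equal.

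Genes of the translation apparatus outside the 41 were counted in the same fit. Of 25 other cytosolic ribosomal protein genes tested, out of 40 listed, 15 were called lower in pure endosperm and none higher, with a median log2 of -1.42; AT1G18540 (-1.64) and AT2G41840 (-1.53) had the lowest p. Of 13 chloroplast ribosomal protein genes tested 10 were lower (median -1.73), with EMB3105 at -1.60 and RPS9 at -1.73. Of 20 ribosome biogenesis genes 13 were lower (median -1.47), among them AT3G05060 at -1.93 and FIB1, the fibrillarin that methylates ribosomal RNA, at -1.62. Of 10 translation factors 1 was lower, AT1G07930, an elongation factor gene, at -0.92. None of these genes was called higher. In the same comparison 8 of 12 seed coat markers and 4 of 4 endosperm markers tested were higher in pure endosperm and 5 of 9 embryo markers lower, and the part of tissue makeup in the ribosomal protein result was not tested.

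The number of members called depended on each library. It was 9 without pure endosperm 1, 9 without pure endosperm 2, 3 without pure endosperm 3, 9 without embryo 1 and 1 without embryo 2. Over all genes those called lower in these fits numbered 835, 730, 373, 828 and 371, against 1101 with all libraries. Without both LCM-titled libraries 7 members and 793 of all genes were lower, and without the library set term 9 and 742. The members' medians ran from -1.66 to -1.05 over these and the other omissions of a library. The exceptions in sign were single members with a positive value in 5 of these fits.

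**Figure D1:**
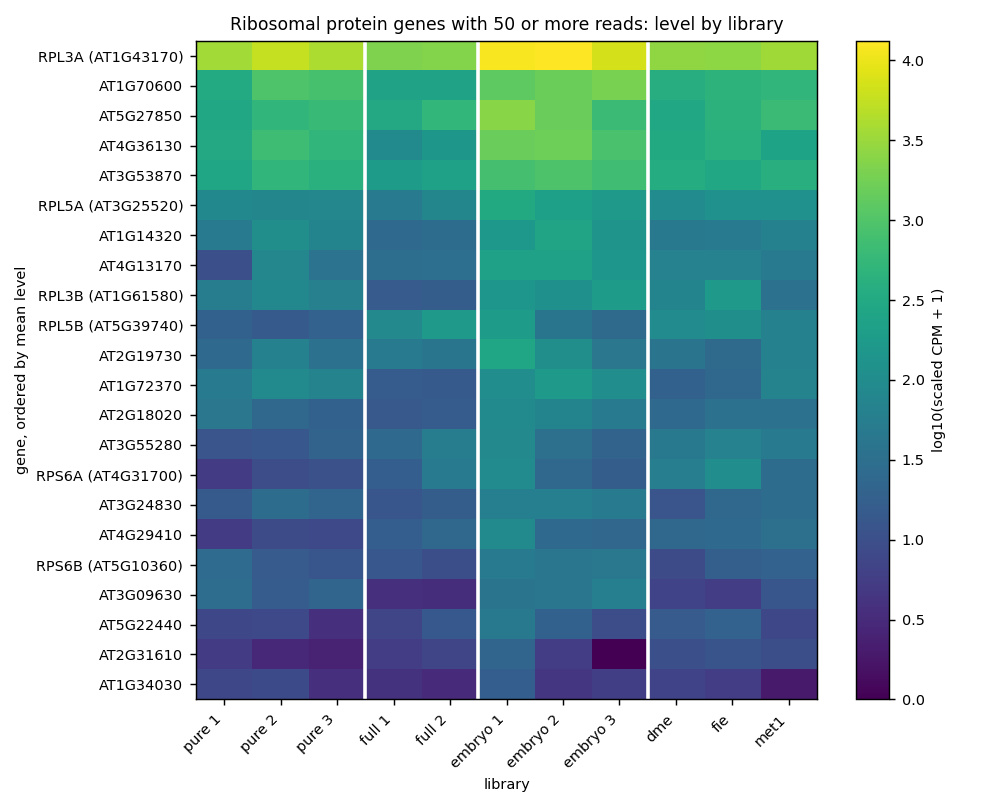
Level of the 22 members with at least 50 reads (vertical axis, ordered by mean level) in each of the 11 libraries (horizontal axis), as log10 of scaled CPM plus 1; white lines part pure endosperm, full endosperm, embryo and mutant endosperm. The embryo columns are brightest for most genes, and RPL5B and RPS6A are brighter in full endosperm, embryo 1 and the mutants than in pure endosperm.

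**Figure D2:**
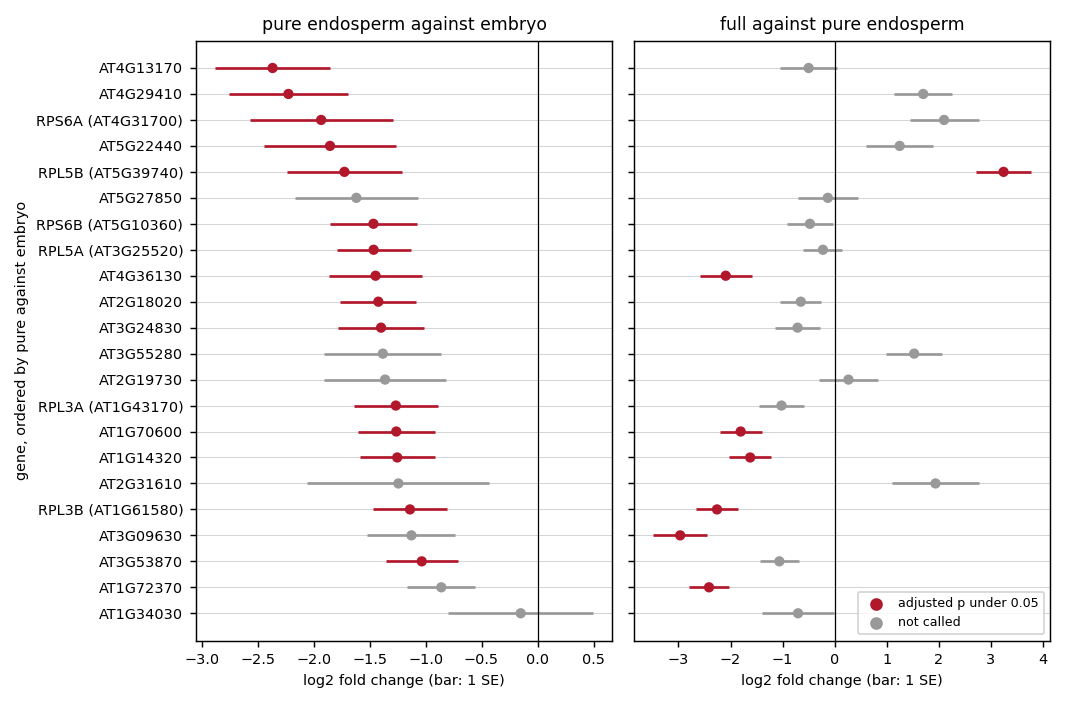
Fitted log2 fold change with 1 standard error for the 22 tested members in pure endosperm against embryo (left) and full against pure endosperm (right), in the same order of genes; red marks an adjusted p under 0.05. On the left all 22 points lie below 0 and 15 are red, and on the right 6 red points lie below 0 and 1, RPL5B, above.

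Full and pure endosperm differed in both directions. Of 22 members tested 6 were lower and 1 was higher in full endosperm, against 3.73% and 4.07% of all genes, and the median log2 was -0.58 against 0.01 over all genes. Every full endosperm library lay below every pure endosperm library in 10 members (17.4% of all genes) and above in 5 (24.9%). AT3G09630, of the L4/L1 family, had scaled CPM of 29.2, 15 and 21.4 in pure and of 2.56 and 2.5 in full endosperm. Its log2 fold change was -2.97 ± 0.52 (edgeR adjusted p = 0.0173), and its full endosperm values rest on 10 and 11 reads. RPSAA (AT1G72370), the small subunit protein SA, had 49.4, 90.9 and 67.7 against 14.6 and 13.9, a log2 fold change of -2.41 ± 0.38 (edgeR adjusted p = 0.0118). The libraries of the 2 preparations did not overlap in either gene. Both calls were lost without pure endosperm 3 and without embryo 2, and that of RPSAA also without the library set term.

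RPL3B had scaled CPM of 53.8, 83.9 and 61.6 in pure and of 14.1 and 15.2 in full endosperm, a log2 fold change of -2.26 ± 0.40 (edgeR adjusted p = 0.0173). Its paralogue RPL3A had 2151 and 2244 in full endosperm, below all pure libraries, and its log2 difference of -1.02 ± 0.43 did not pass (edgeR adjusted p = 0.158). AT4G36130 (-2.09), AT1G70600 (-1.81) and RPL10A (-1.62) were the other members called lower. The single member called higher was RPL5B, with scaled CPM of 86.1 and 166 in full endosperm beside 13.5 to 18.8 in pure endosperm, a log2 fold change of 3.24 ± 0.54 (9.47-fold, edgeR adjusted p = 0.0144). Its paralogue RPL5A had 50.6 and 75.7 in full endosperm, next to 77.4 to 83 in pure endosperm, a log2 difference of -0.22 ± 0.37 (edgeR adjusted p = 0.741).

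A further 5 members had a fitted log2 difference above 1 in full endosperm without passing the test. They were RPS6A (2.10 ± 0.66, edgeR adjusted p = 0.0765), AT2G31610 of the S3 family (1.94 ± 0.83, 0.160), AT4G29410 (1.70 ± 0.56, 0.0833), RPL23AB (AT3G55280, 1.53 ± 0.54, 0.104) and AT5G22440 (1.25 ± 0.65, 0.239). Seed coat marker sums were higher in both full endosperm libraries than in the 3 pure ones, as were embryo marker sums. Of 12 seed coat markers tested 2 were called higher and 2 had a negative log2 difference. Of 9 embryo markers 1 was called higher and 4 were negative. All 4 endosperm markers tested had a negative log2 difference (median -0.79), and 1 was called lower. The part of these marker lists in the members' differences was not tested. RPL5B reads in full endosperm were 67.7% and 64.8% maternal, near the 66.7% of genome dosage. Without the library set term 2 members were called lower and none higher, with 18 and 50 of all genes. Without pure endosperm 3 the comparison called no gene of the whole table. Without embryo 2 no member was called, with 21 lower and 42 higher of all 9148 genes. Without pure endosperm 2 the members called lower fell to 2, with 59 of all 9249 genes. Members called higher were 2 without embryo 3, with 536 of all 9252 genes. Without full endosperm 1 or 2, which leaves 1 full library, the members' median log2 was -0.35 and -0.75. The medians of all genes were then 0.14 and -0.07. Nothing particular to the members is read from these counts.

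In families where 2 members had enough reads, the split between paralogues could be followed within a library, free of its scaling. RPL5B made up 17.8% of the L5 reads in pure endosperm 1 (exact 95% binomial interval 8% to 32.1%), 14.8% in pure endosperm 2 and 18.9% in pure endosperm 3. Its share was 63.0% and 68.7% in full endosperm, 36.2%, 15.5% and 13.5% in embryo 1 to 3, 50% in dme, 48.4% in fie and 34.9% in met1. The share was thus similar in pure endosperm and in both embryo libraries without LCM in the title, and higher in full endosperm, LCM-titled embryo and mutants. The 2 coding sequences are 92.7% identical with a longest shared run of 44 bases, so that some reads could fit both genes.

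RPS6A made up 14.3%, 37.0% and 45.2% of the S6 reads in pure endosperm 1 to 3, from 14, 46 and 42 reads. Its share was 57.3% and 85.2% in full endosperm, 65.6%, 36.2% and 26% in embryo, 88.3% in dme, 86.1% in fie and 59.6% in met1. As for RPL5B, the share was higher in full endosperm, embryo 1 and the mutants than in pure endosperm, embryo 2 and embryo 3. The order among the higher libraries differed, with dme and fie highest for RPS6A and full endosperm highest for RPL5B. Counting intervals were wide in pure endosperm. The RPS6 coding sequences are 85.1% identical. Some other pairs kept the same leading gene in all 11 libraries: RPL3A held 94.0% to 99.4% of the L3 reads, AT4G36130 held 87.7% to 96.7% of its pair with AT2G18020, and AT3G53870 held 96.3% to 100% of its pair with AT2G31610. A constant leading gene does not mean a constant split. AT2G19730 led AT4G29410 in every library, with 51.4% of the pair in fie and 89.0% in pure endosperm 2 at the ends. AT4G13170 led AT3G24830 in 10 of the 11 libraries, the exception being pure endosperm 1 with 40% of 10 reads.

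**Figure D3:**
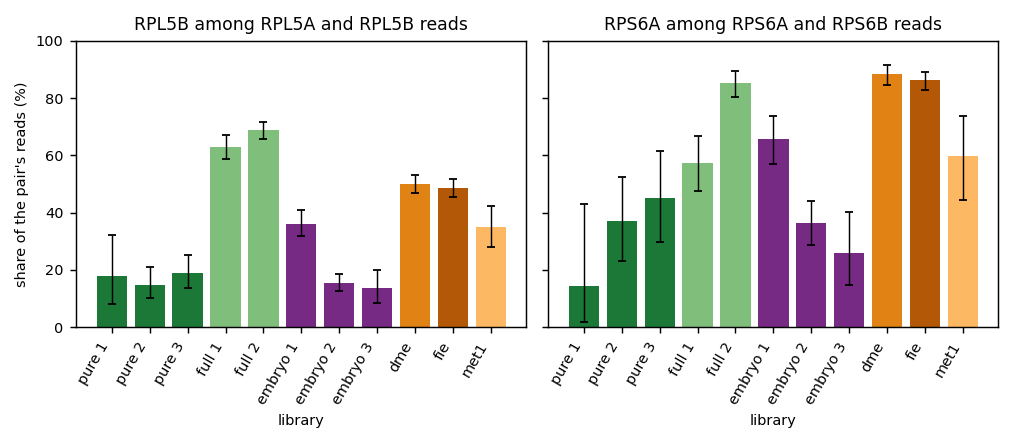
Share of the reads of a paralogue pair (vertical axis, percent) that were assigned to RPL5B (left) or RPS6A (right) in each of the 11 libraries (horizontal axis); bars are shares of reads and error bars exact 95% binomial intervals, which cover counting error only. RPL5B stays below 20% in pure endosperm, embryo 2 and embryo 3 and reaches 63.0% and 68.7% in full endosperm.

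Against the dissected Col × Ler libraries, the LCM-titled libraries gave no call among the 22 members, with 0.299% of all genes called higher and 3.60% lower by edgeR. The lowest edgeR adjusted p was 0.0983, for RPL5B. An unadjusted edgeR p under 0.05 was found for 5 of the 22 members and for 1992 of all 9354 genes, a similar share. DESeq2 called none of the members either. The members' median log2 was 0.39 against -0.24 over all genes. The 2 tissues did not give the same values, each pair being 1 library against 1. In the endosperm pair the members' median was -0.71, with none at least 2-fold higher and 5 at least 2-fold lower, against 10.5% and 37.9% of all genes. In the embryo pair the median was 0.34, with 8 at least 2-fold higher and none lower, against 8.87% and 20.1%. Seed coat marker sums were lower in the LCM-titled library of each pair, and 4 of 12 seed coat markers were called lower, MUM2 by -4.03 and TT8 by -3.04 on the log2 scale. Endosperm marker sums were lower there too, 13810 against 118070 scaled CPM in the endosperm pair and 50.7 against 1324 in the embryo pair. In the fit only 2 of the 4 endosperm markers tested were negative, with a median log2 of -0.18, so the sums do not describe each marker. Embryo marker sums were 202 against 598 in the endosperm pair and 1796 against 1696 in the embryo pair. None of 4 endosperm and 9 embryo markers tested was called by edgeR, with 1 of each at an unadjusted p under 0.05. The part of all 3 marker lists in the members' values was not tested.

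The 8 members that were at least 2-fold higher in LCM-titled embryo 1 than in embryo 2 included all 6 members with a fitted level at least 2-fold higher in full than in pure endosperm, and none of the 8 members at least 2-fold lower there. This set was picked after its values were seen, and no test was made. Embryo 1 and embryo 2 also entered the fit of full against pure endosperm through its library set term, so the comparisons share libraries. A high embryo 1 raises the term of the LCM-titled set, which lowers the fitted pure endosperm level and raises full over pure. The overlap is thus in part built in. AT5G22440 had mean scaled CPM of 9.44 in full and 5.42 in pure endosperm, with overlapping libraries, and a fitted 2.38-fold difference. RPL5B was 182 against 38.5 scaled CPM, a log2 ratio of 2.22, and RPS6A 96.9 against 23.2, a log2 ratio of 2.02. AT2G31610 had 21.4 against 4.71 and AT4G29410 had 90.1 against 24.7. RPL23AB had 85.6 against 31.8 and AT5G22440 had 46.2 against 18.1. Of the other 16 members tested 2 were at least 2-fold higher in embryo 1, AT1G34030 and AT2G19730. The 6 had 192 to 2512 reads over all libraries. In the endosperm pair none of the 6 was at least 2-fold higher.

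**Figure D4:**
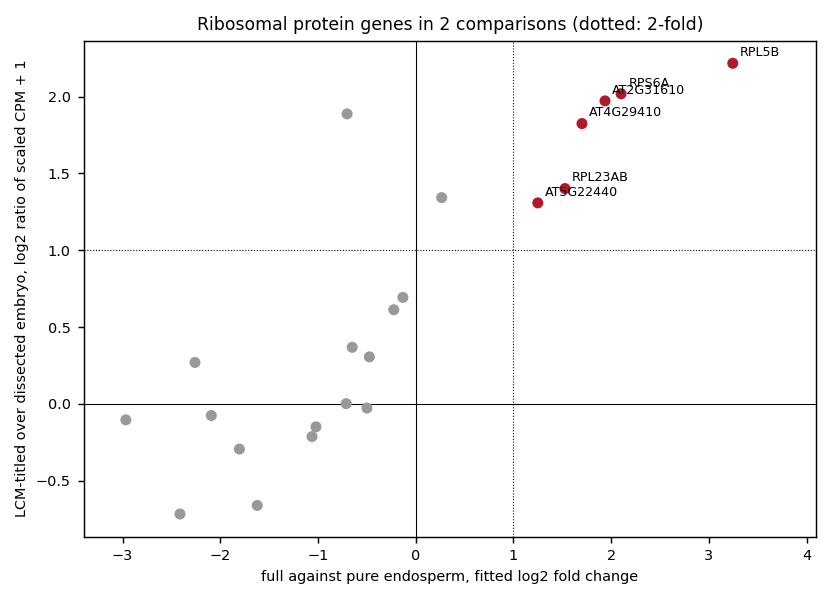
Each point is 1 of the 22 tested members, with its fitted log2 fold change in full against pure endosperm (horizontal axis) and its log2 ratio of scaled CPM plus 1 between LCM-titled embryo 1 and embryo 2 (vertical axis); red marks the 6 genes at least 2-fold higher in full endosperm. All 6 red points lie above the dotted 2-fold line of the vertical axis, as do 2 of the 16 grey points. Embryo 1 also enters the fit on the horizontal axis, so this overlap is in part built in.

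The direction of the cross left the members' total level without a call. Between Ler × Col and Col × Ler none of the 22 members passed by edgeR or DESeq2, and none had an unadjusted p under 0.05. Over all genes 0.0107% were called in each direction, and 367 of 9354 had an unadjusted edgeR p under 0.05. The members' log2 differences ran from -0.81 in AT2G19730 to 0.59 in RPS6A, and all 22 lay within 2 standard errors of 0.

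The mutant endosperm libraries, 1 each, allow no test, and they were set against the wild-type pure endosperm of the same cross by the ratio of scaled CPM plus 1. In dme, against pure endosperm 2, 5 of 22 members were at least 2-fold higher and 7 at least 2-fold lower, near the 22.5% and 27.2% of all genes. In fie, against pure endosperm 3, 7 were higher and 2 lower, with 24.9% and 28.9% of all genes. In met1, against pure endosperm 3, 6 were higher and 1 lower, with 15.0% and 23.6% of all genes. The members' medians were -0.45 in dme, 0.54 in fie and 0.38 in met1 on the log2 scale, and those of all genes were -0.05, -0.04 and -0.19.

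RPL5B had scaled CPM of 98.2 in dme, 114 in fie and 64.1 in met1, against 13.5 and 18.8 in the matching pure endosperm, log2 ratios of 2.78, 2.54 and 1.71. RPS6A had 58, 105 and 27.6, against 8.49 and 9.67, log2 ratios of 2.64, 3.32 and 1.42. AT5G22440 stood at 0.92 in dme, 2.5 in fie and 1.16 in met1, and AT4G29410 at 1.41, 1.66 and 2.04. These ratios and the comparison of full with pure endosperm share the pure endosperm libraries, so genes low there are high in both, and no agreement is read from them. RPL3B, called lower in full than in pure endosperm, had 168 scaled CPM in fie against 61.6. RPSAA was the lowest in dme, with 18 against 90.9 scaled CPM and a log2 ratio of -2.27, and AT3G09630 the lowest in fie, at -1.98.

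Set against the full endosperm of the same cross, 5 of 22 members were at least 2-fold higher in dme, 5 in fie and 7 in met1, against 17.9%, 15.3% and 6.99% of all genes. Members at least 2-fold lower numbered 0, 0 and 1, against 21.0%, 27.5% and 20% of all genes. RPL5B then differed by 0.19 in dme, -0.54 in fie and -1.36 in met1. RPL3B stood at 2.28 in dme, 3.38 in fie and 1.09 in met1 in that comparison. The dme and fie libraries had the highest seed coat marker sums and endosperm marker sums far below wild-type endosperm, as given above. Whether the mutations change the endosperm marker genes themselves was not tested, so a low sum need not mean less endosperm tissue. The part of tissue makeup in the members' values was not tested either.

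The parental share of the members was near genome dosage. In pure endosperm 19 members could be tested against a maternal to paternal ratio of 2 to 1, 1 was called less maternal and none more maternal, against 0.723% and 4.29% of all genes. Their median log2 deviation was -0.15, with 0.07 over all genes, and 18 of the 19 lay within 2 standard errors of dosage. In full endosperm 21 were tested and again 1 was called less maternal and none more maternal, against 0.480% and 18.9%, with a median of 0.04 where that of all genes was 0.48. In embryo none of 19 was called against a ratio of 1 to 1 by edgeR or DESeq2, with a median of 0.02. Of all genes 0.918% and 0.0551% were called more and less maternal. An unadjusted edgeR p under 0.05 was found for 2 members and for 220 of all 5447 genes. For comparison, 9 of 10 seed coat markers tested in pure endosperm and 11 of 11 in full endosperm were called more maternal.

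RPL3A, with the most reads, had maternal shares of 58.1%, 58% and 42.5% in embryo 1 to 3. They were 76.6%, 72.9% and 57.5% in pure endosperm 1 to 3, and 73.7% and 62.3% in the 2 full endosperm libraries. The share was higher where Col was the mother, in each tissue. With the ecotype term in the fit its deviation from dosage was 0.02 ± 0.15 in embryo, 0.03 ± 0.14 in pure endosperm and 0.11 ± 0.17 in full endosperm. RPL5A had the largest positive deviation in pure endosperm, 0.35 ± 0.27 (edgeR adjusted p = 0.868), from maternal shares of 62.2%, 69.7% and 76.1%. AT3G09630 (-0.68 ± 0.48) and AT4G29410 (-0.64 ± 0.64) were the lowest after AT1G70600. In full endosperm the ends were AT2G31610 (1.39 ± 0.80) and AT5G22440 (-1.19 ± 0.68), neither called. In embryo RPL5B was lowest, at -1.19 ± 0.45 (edgeR adjusted p = 0.596), from maternal shares of 43.2%, 46.9% and 19%, the last of them from 21 reads.

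The member called less maternal in both endosperm preparations was AT1G70600. Its reads were almost all from the Ler allele: the maternal share was 0.710%, 0.504% and 99.8% in embryo 1 to 3. It was 0%, 0.609% and 99.4% in pure endosperm 1 to 3 and 0.879% and 98.9% in the full endosperm libraries. The parental test of this gene therefore rests on the few Col reads, 12 of 1971 in pure endosperm 2 and 10 of 1649 in pure endosperm 3. This small Col share was nearly the same in both cross directions. Against 2 to 1, a Col share equal in both directions comes out as less maternal by the size of the dosage offset. The test thus cannot tell parental bias from a constant trace of reads assigned to Col, and no bias is read from it. The deviation was -1.09 ± 0.33 in pure endosperm (edgeR adjusted p = 0.0227) and -1.17 ± 0.40 in full endosperm (edgeR adjusted p = 0.0218). DESeq2 called it in neither, and the pure endosperm call was lost without pure endosperm 2, without pure endosperm 3 and without both LCM-titled libraries, the full endosperm call without full endosperm 2. The fitted parental ratio beyond dosage differed between pure endosperm and embryo for this gene alone of 19 members, by -1.90 ± 0.52 on the log2 scale (edgeR adjusted p = 0.0188). Of all genes 0.489% were called lower and 1.09% higher. The dosage offset enters pure endosperm and not embryo, so this difference has the same limit, and no parental difference is read from it.

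**Figure D5:**
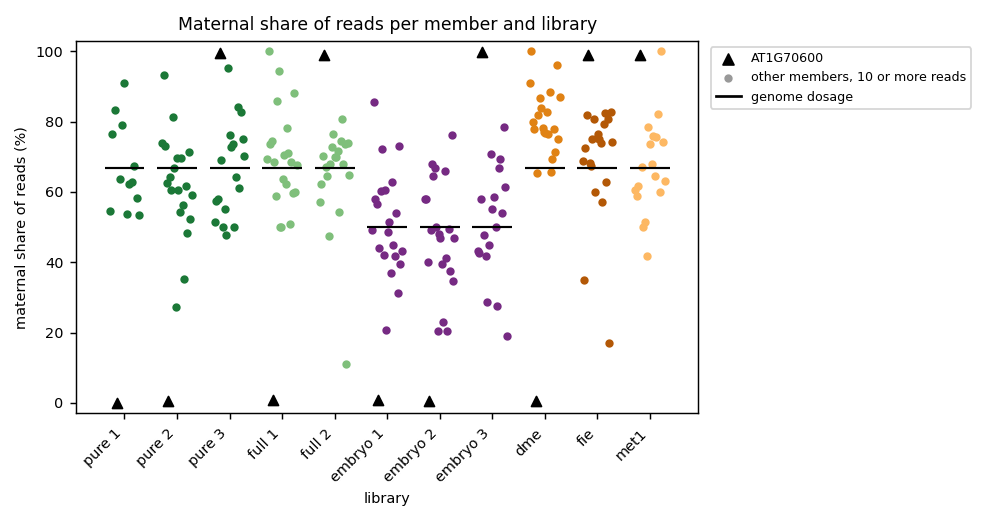
Maternal share of the reads (vertical axis, percent) of each member with at least 10 reads, by library (horizontal axis); black lines mark genome dosage, 66.7% in endosperm and 50% in embryo, and triangles mark AT1G70600. Most members scatter around the line in wild-type libraries, AT1G70600 sits near 0% or 100% with the place of Ler in the cross, and most dme points lie above the line.

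Several members differed between the Col and Ler alleles. In endosperm 5 of 22 members had more Col and 4 more Ler reads, against 13.3% and 8.52% of all genes, and in embryo 3 and 4 of 19, against 10.1% and 6.04%. AT1G70600 had a Col to Ler log2 ratio of -7.08 ± 0.21 in endosperm and -8.26 ± 0.30 in embryo. AT3G24830 favoured Ler at -1.62 ± 0.33 and -1.61 ± 0.40, and AT5G27850 at -0.60 ± 0.13 and -0.72 ± 0.18. RPL3A favoured Col at 0.48 ± 0.11 and 0.45 ± 0.15, AT4G13170 at 0.73 ± 0.23 and 1.13 ± 0.27, and AT2G19730 at 1.19 ± 0.24 and 1.21 ± 0.37. These 6 genes were called in both tissues, each with the same direction. RPS6A favoured Ler in endosperm (-1.10 ± 0.31) and RPS6B in embryo (-1.38 ± 0.44), while AT5G22440 (2.33 ± 0.52) and AT1G34030 (2.86 ± 0.81) favoured Col in endosperm. Without full endosperm 1 both of these Col calls were lost, AT5G22440 at 1.11 (edgeR adjusted p = 0.488) and AT1G34030 at 2.33 (edgeR adjusted p = 0.137). Without pure endosperm 3 the endosperm call of AT3G24830 was lost too, at -0.84 (edgeR adjusted p = 0.208). Of 9 endosperm and 7 embryo calls, 7 and 4 were lost in at least 1 alternative setting. An unequal number of reads that can be assigned to each allele cannot be told apart from unequal expression of the alleles.

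In each mutant library the members' median shift towards maternal reads lay below that of all genes. In dme the maternal to paternal ratio exceeded that of pure endosperm 2 by a median log2 of 1.45 over 21 members and of 1.70 over 7423 genes, and 14 members were at least 2-fold more maternal, where 70.1% of all genes were, and none at least 2-fold less maternal (3.69% of all genes). In fie the medians were 0.31 over 19 members and 0.92 over all genes, with 5 members at least 2-fold more maternal and 47.5% of all genes, and 1 less maternal (6.33%). In met1 they were -0.08 and 0.57, with 1 member and 35.2% of all genes more maternal, and 1 member and 7.51% less maternal. Members summed without AT1G70600 were 79.8% maternal in dme, against 69.3% in pure endosperm 2, and 73.0% in fie and 62.3% in met1, against 61.1% in pure endosperm 3. RPL5B had maternal shares of 86.9% in dme, 74.1% in fie and 63.1% in met1. RPSAA stayed near dosage in each, at 65.3%, 68.3% and 67.1%. With 1 library each these values have no replicate check, and the higher seed coat marker sums of the mutants stand beside them, with their part not tested.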

How the data were processed

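The files hold whole-number read counts per gene, as deposited by the authors: for each gene of a cDNA model set, 1 column holds the reads closer in sequence to Col and the other those closer to Ler, per the file headers' readme. Bowtie is named in the submitters' processing notes; no source used here gives its version, the annotation release, the use of strand or the handling of multiply matching reads. A read that matches both ecotypes equally is not counted.

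Columns were renamed maternal and paternal by cross. Maternal plus paternal counts of the 8 wild-type libraries were fitted with edgeR 4.0.16 in R 4.3.3 (TMM, filterByExpr, robust quasi-likelihood), with group and library set (the LCM-titled libraries, the dissected Col × Ler libraries and the Ler × Col libraries) as terms, which blocks the replicates of a set. Pure endosperm and embryo libraries of a set deviated together (r = 0.38, 0.35 and 0.28 across genes). Allele counts of the 11 libraries were fitted with a term per library, an ecotype term per tissue and a parent term per group, after an offset for 2 maternal doses in endosperm; genes needed 10 reads in each cross direction. Calls are Benjamini-Hochberg adjusted p under 0.05 over all genes; SE is the log2 fold change divided by the square root of its F statistic. Scaled CPM took a pseudocount of 1 in ratios, and parental ratios 0.5 reads. Libraries of 1 group differed by 16.4 to 74.1 in chi-square per degree of freedom, and none repeats another. Intervals cover counting error only. Both fits were tested on simulated data; with the spread set from edgeR's trended dispersion of these libraries, the total fit made few false calls but missed many of the simulated 4-fold changes, and it missed more as a larger spread was assumed, so a member without a call may still differ. The spread assumed for the allele fit was set by hand. Alternatives, also with DESeq2 1.42.0, stand in the closing section. The members, gene lists and tests were chosen with earlier results of these data known. Genes named are the 6 members with most reads per library, called members up to 10, the extremes of each comparison and the ends of each family; any other is said to be picked afterwards. Identifiers matched RefSeq's TAIR10.1 locus tags for 27688 of 28523 genes and all 41 members; the counts were not placed on that assembly, whose own annotation gives the promoters.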

Additional observations from a re-analysis of the deposited data

Results flagged for a closer look

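AT1G70600 differed in parental ratio between pure endosperm and embryo, by -1.90 ± 0.52 on the log2 scale beyond genome dosage (edgeR adjusted p = 0.0188), in a test of the difference itself. Over the alternatives its adjusted p ran from 0.0130 to 0.865. The call was lost with DESeq2, without both LCM-titled libraries, and without pure endosperm 2, embryo 1 or embryo 2. Nearly all its reads came from Ler in every library, and the Col reads behind the value number 0 of 149, 12 of 1971 and 10 of 1649 in pure endosperm and 8 of 1127, 20 of 3968 and 3 of 1631 in embryo. A Col share equal in both cross directions is scored as less maternal in endosperm by the size of the dosage offset. The offset does not enter embryo, so the difference cannot be read as a parental one.

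AT2G19730, of the L28e family, moved in opposite directions between LCM-titled and dissected Col × Ler libraries in the 2 tissues. In endosperm it had 24.7 against 64.4 scaled CPM, a log2 ratio of -1.35 from 11 and 129 reads. In embryo it had 278 against 109, a log2 ratio of 1.34 from 247 and 278 reads. Each pair holds 1 library of a kind, and the difference was not tested.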

How the results depend on the processing

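Over 15 alternatives the members' median in pure endosperm against embryo stayed below 0, from -1.85 to -1.05, and no member was called higher. Scaling by library totals shifted the median of all genes to -0.47 in pure endosperm against embryo, 0.31 in full against pure endosperm and 0.41 in LCM-titled against dissected libraries, beside which the members' medians were -1.85, -0.23 and 0.93. No named member that was called reversed its direction. The cause of the changes below was not tested.

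In pure endosperm against embryo 15 members were lower, with 1101 of all genes. Without the library set block 9 were, with 742 of all genes, and without both LCM-titled libraries 7, with 793. Leaving out 1 library gave 1 to 17 members and 1067 to 2669 genes of all (2515 with all libraries). In full against pure endosperm 730 genes were called, 1571 with no filter, 68 without the block and 1268 without both LCM-titled libraries. Members higher there were 2 of 22 with DESeq2 size factors, with 588 of 9589 genes, and 4 of 23 with library totals, with 811 of 9913. They were 4 of 26 with no filter, with 848 of 17047 genes, and 0 of 22 without the block, with 50 of 9354. Members lower were 2 without the block, with 18 of all genes. Leaving out 1 library gave 0 to 1453 genes, 0 to 2 members higher and 0 to 8 lower. For LCM-titled against dissected libraries 365 genes became 715 with DESeq2 and 1001 with no filter, with 1 member higher under library totals and 2 with no filter; leaving out 1 library gave 134 to 790 genes and 0 to 1 members in each direction. Under library totals 270 of 9913 genes were higher in the LCM-titled libraries, beside 1 of 23 members. With no filter 198 of 17047 genes were, beside 2 of 26 members. For the cross direction 2 genes became 22 with DESeq2, 7 with its size factors, 8 with library totals, 83 with no filter and 5 without both LCM-titled libraries, and 1 to 20 on leaving out 1 library, with 0 members throughout.

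Parental calls in pure endosperm fell from 367 to 146 genes with DESeq2, in full endosperm from 1778 to 723, in embryo from 53 to 15, and for pure endosperm against embryo from 81 to 17, and the 1 member called less maternal became 0 in each of the 3 endosperm results. It was also 0 in pure endosperm, and in its difference from embryo, without both LCM-titled libraries. With 30 reads required, 30 genes were called in embryo. With the median ratio of all genes in place of genome dosage, 1049 genes were called in full endosperm, and 20 of 21 members lay below that median. Leaving out 1 library gave 78 to 388 genes in pure endosperm, 432 to 2073 in full endosperm, 3 to 57 in embryo and 21 to 98 for the difference, with 0 to 1 members less maternal in pure endosperm, in full endosperm and for the difference, and 0 in embryo. Ecotype calls fell with DESeq2 from 2237 to 1218 genes in endosperm and from 879 to 518 in embryo. Leaving out 1 library gave 1414 to 2368 genes in endosperm, with 2 to 6 members higher in Col and 2 to 4 lower, and 455 to 1002 in embryo, with 1 to 3 and 3 to 4. The allele fit without embryo 3 could not be fitted.

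For the mutants, members at least 2-fold lower than pure endosperm numbered 7 in dme, 2 in fie and 1 in met1. With library totals they were 1, 1 and 0, and against full endosperm 0 in dme and 0 in fie. At 1.5-fold they were 4 in fie and 5 in met1. Members higher with library totals were 12 in fie and 10 in met1. Members at least 2-fold more maternal in dme (14) were 3 relative to the median of all genes and 8 with 30 reads required. Against full endosperm they were 9 of 22, with 59.3% of all genes. Less maternal members in dme were 6 of 21 relative to the median, with 22.3% of all genes. Against full endosperm 1 was less maternal, with 5.74% of all genes. In fie the 5 more maternal became 0 relative to the median and 1 of 21 against full endosperm, with 33.8% of all genes. Less maternal members in fie were 2 of 19 relative to the median, with 18.3% of all genes. Against full endosperm they were 0, with 9.23% of all genes. In met1 less maternal members were 3 of 19 relative to the median, with 16.8% of all genes. With 30 reads required they were 0, where more maternal ones were 0 too. The share of all genes was not counted with library totals, at 1.5-fold or with 30 reads required. Nor was it counted for more maternal genes relative to the median. Nothing particular to the members is read from those counts.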

Other observations

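Among genes of the translation apparatus outside the 41, calls in full against pure endosperm were near the 4.07% higher and 3.73% lower of all genes, and nothing particular to these lists is read from them. Of 25 other cytosolic ribosomal protein genes 1 was higher, RPS10B (AT5G41520) at 3.41 ± 0.66 on the log2 scale (edgeR adjusted p = 0.0210), and none lower, with a median of -0.30. Of 20 ribosome biogenesis genes 1 was higher, AT5G38720 (2.55), and 1 lower, PUM23 (-1.72), with a median of -0.01. Of 13 chloroplast ribosomal protein genes 1 was lower, EMB3126 (-1.89). None of 10 translation factors was called by edgeR.

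These lists also held no parental call in wild-type tissue. In pure endosperm 0 of 23 other cytosolic ribosomal protein genes, 0 of 10 chloroplast ribosomal protein genes, 0 of 16 ribosome biogenesis genes and 0 of 9 translation factors were called by edgeR, with medians of -0.07, 0.05, -0.02 and -0.09 around genome dosage. In full endosperm 0 of 25, 0 of 12, 0 of 20 and 0 of 10 were called, where 18.9% of all genes were called more maternal. The summed level of the listed chloroplast ribosomal protein genes was 80.1 scaled CPM in dme and 77.9 in fie, below the 262 to 610 of wild-type endosperm.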
